A study of Gallus gallus with 6 samples.

Results

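The genes of zinc, iron and copper handling were followed in chicken ileum, the last stretch of the small intestine, under 2 diets. They are the 42 rows, of 17623 in the gene table, whose symbol names a zinc importer (SLC39A), zinc exporter (SLC30A), iron transporter (SLC11A, SLC40A), copper transporter (SLC31A) or magnesium transporter (SLC41A), or 1 of 14 further listed symbols of metal biology. Of those 14 symbols, 13 were found and MT4 was not. All birds were Taiping chickens, a local breed, labelled as males of 2 months. CT, with 3 libraries, received only a basal feed of corn and soybean. MP_FOS, also with 3 libraries, received that feed and water with 2 mL of probiotics and 1 mL of fructo-oligosaccharide (FOS, a fermentable sugar chain) per litre. The labels name no probiotic strain, and they do not say whether each library is a separate bird, so p-values measure the spread between libraries.

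Zinc, iron and copper are needed by many enzymes and are toxic in excess, so cells move them with dedicated carriers. ZIP proteins (SLC39A) bring zinc into the cytosol, and ZnT proteins (SLC30A) take it out of the cell or into organelles. In the mammalian gut, ferric iron is reduced at the brush border by CYBRD1, enters through DMT1 (SLC11A2) and is stored in ferritin. Iron leaves through ferroportin (SLC40A1), and hephaestin (HEPH) oxidises the exported iron. Copper enters through CTR1 (SLC31A1) and is pumped out by ATP7A. Iron regulatory proteins, ACO1 and IREB2, bind stem-loops in the messages of ferritin, ferroportin and the transferrin receptor.

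The libraries held 11833015 to 18106651 counts. Markers of the tissue were present. For the 15 enterocyte (absorptive cell) markers, a list that also holds EPCAM of all gut epithelium, 16 rows were found, none at 0. Their summed FPKM (fragments corrected for the length of the transcript and for depth) was 9181 to 11719 in CT and 6247 to 12791 in MP_FOS. Pancreas markers summed to at most 0.48 FPKM, with CPA1, CEL and PNLIP listed at 0 in every library. CT replicate 2 and MP_FOS replicate 2 had almost no reads of the female-specific W chromosome (4 W-linked rows summing to 0.25 and 0.16 FPKM), against 258 to 314 FPKM in the other 4 libraries, although all are labelled male. In this bulk tissue, fewer cells of a type and less RNA per cell cannot be told apart.

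Levels came first, as FPKM, which corrects for length and so allows genes to be compared. FTH1 (ENSGALG00000007220), the ferritin heavy chain that stores iron, stood far above every other member at 2208, 2039 and 2223 FPKM in CT replicates 1, 2 and 3 and 2433, 2027 and 2809 FPKM in MP_FOS replicates 1, 2 and 3. Next by CT mean came CYBRD1, the brush-border ferric reductase, at 102 ± 19.1 FPKM (SD, n = 3), the copper importer SLC31A1 at 72.7 ± 6.02 FPKM, the zinc exporter SLC30A4 at 71.6 ± 8.52 FPKM and HEPH, the ferroxidase of iron export, at 55.0 ± 7.04 FPKM. These 5 members had a CT mean of at least 50 FPKM, 20 had from 10 to under 50, 11 had from 1 to under 10, and 6 had under 1. The plot of levels by library shows this order within each role.

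**Figure D1:**
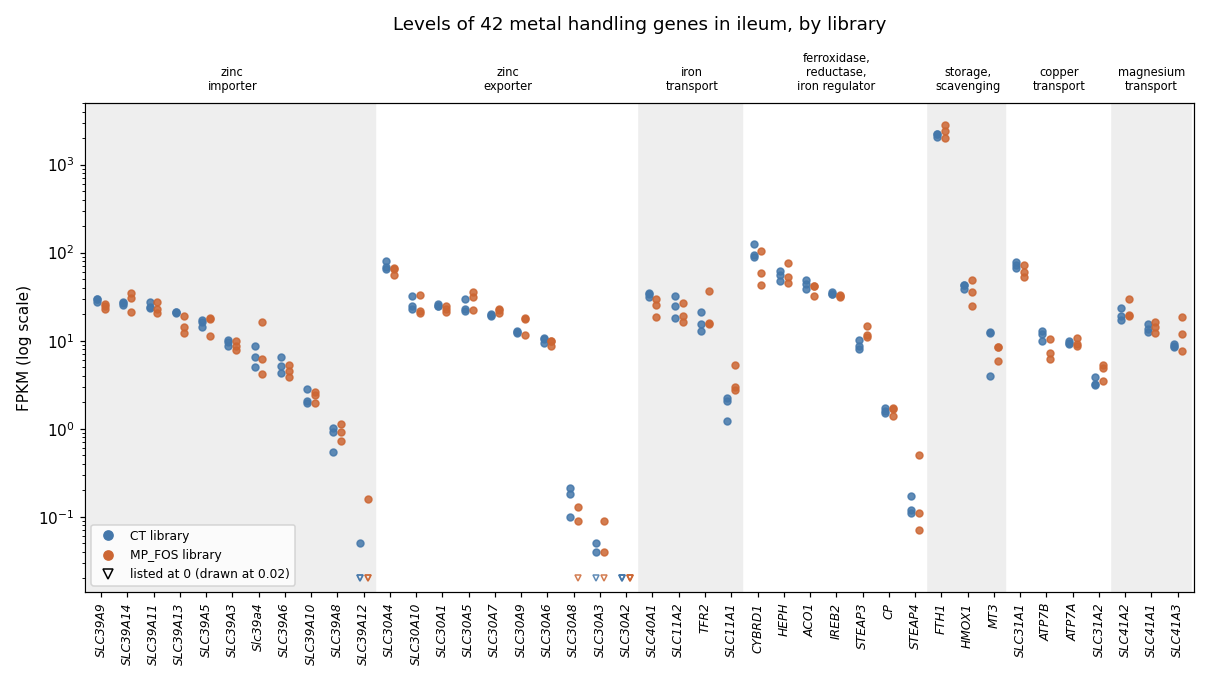
FPKM on a log axis (vertical) for each of the 42 genes, grouped by role, with 1 point per library, CT to the left of MP_FOS, and open triangles for libraries in which a gene is listed at 0. FTH1 lies at or above 2027 FPKM in all 6 libraries, while SLC30A2, SLC30A3, SLC30A8, SLC39A8, SLC39A12 and STEAP4 have CT means under 1 FPKM.

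Among the zinc importers, SLC39A9 led in CT with 29.7, 30.1 and 27.8 FPKM. It was followed by SLC39A14 (25.3, 27.7 and 26.9 FPKM), a ZIP that in mammals also carries iron and manganese, and SLC39A11 (23.2, 27.3 and 24.2 FPKM), whose CT libraries overlapped. SLC39A13, at 20.8 to 21.2 FPKM, lay below all of these. SLC39A5, known in mouse for the basolateral side of the intestinal cell, had 14.4 to 17.0 FPKM and SLC39A3 8.73 to 10.2 FPKM. The row called Slc39a4, annotated as like ZIP4, the main importer of dietary zinc in mammals, had 5.02 to 8.68 FPKM and overlapped SLC39A6 at 4.35 to 6.49 FPKM. Both Slc39a4 and SLC39A5 are loci assembled from the reads and not Ensembl genes. The ratio of count to FPKM implies a transcript of only 0.36 kb for Slc39a4, resting on 29 to 54 counts in CT, and of 6.79 to 6.80 kb for SLC39A5, so the gene span behind both levels is uncertain. SLC39A12 had at most 4 counts in any library.

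Among the zinc exporters, SLC30A4 stood apart at 69.2, 81.1 and 64.6 FPKM in CT. SLC30A10, which in humans exports manganese, SLC30A1, the zinc exporter of the plasma membrane, and SLC30A5, which loads zinc into the secretory pathway, followed with overlapping CT ranges between 21.6 and 32.6 FPKM. SLC30A7, another exporter to the Golgi, came next at 19.2 to 19.9 FPKM, then SLC30A9, a mitochondrial carrier, at 12.4 to 12.7 and SLC30A6 at 9.40 to 10.6 FPKM. The remaining exporters were barely read. SLC30A8, which fills insulin granules, had at most 5 counts, SLC30A3 at most 2, and SLC30A2 had 0 in all 6 libraries, which allows up to 0.159 to 0.253 CPM (counts divided by the effective library size) per library for counting error alone.

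For iron, ferroportin (SLC40A1) had the highest CT mean of the transporters, at 31.4, 34.2 and 34.6 FPKM. It overlapped DMT1 (SLC11A2) at 18.1 to 32.2 FPKM, which in turn overlapped the transferrin receptor at 12.8 to 20.9 FPKM. The transferrin receptor row carries the symbol TFR2 but points to the NCBI gene that RefSeq names TFRC, with TFR2 as an older synonym, so it is the receptor for iron uptake from blood. Both iron regulatory proteins were well read, ACO1 at 39.03 to 49.4 FPKM and IREB2 at 33.6 to 36.0 FPKM, and their CT ranges did not overlap. CP, the ferroxidase of plasma, had 1.52 to 1.73 FPKM, far below HEPH. SLC11A1, the transporter of phagocyte vacuoles, had 1.23 to 2.21 FPKM. For copper, SLC31A1 held between 69.8% and 76.1% of the summed FPKM of the 4 copper genes in every library, and ATP7B (10.03 to 12.9 FPKM) lay narrowly above ATP7A (9.15 to 9.98 FPKM) in CT.

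The diets were compared on counts with edgeR's quasi-likelihood test over all genes that passed a low-count filter. Of the 42 members, 37 passed the filter, and SLC30A2, SLC30A3, SLC30A8, SLC39A12 and STEAP4 did not. No member passed an adjusted p of 0.05 (0 of 37, where 0 of 13774 genes, 0%, passed, Benjamini-Hochberg over all genes tested, BH). DESeq2 also called 0 members, with 0.756% of all genes called. At an unadjusted p under 0.05 in edgeR there were 3 members, or 8.11% of those tested beside 10.6% of all genes. STEAP3 and SLC11A1 were higher in MP_FOS (all genes, 5.72%) and SLC39A13 lower (all genes, 4.86%). The libraries of one diet did not overlap those of the other in 4 members (10.8%), beside 16.7% of all genes. STEAP3, SLC11A1 and SLC30A7 were higher in this sense (all genes, 8.2%) and SLC39A13 lower (all genes, 8.49%). Both shares, 8.11% and 10.8%, were below the background. They rest on only 3 and 4 members and were not tested against the shares of all genes. The median log2 fold change (MP_FOS minus CT) was 0.04 over the 37 members and 0.01 over all genes, with 21 members above 0 and 16 below, and 13.5% of members against 17.2% of all genes exceeded 0.5 in size.

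**Figure D2:**
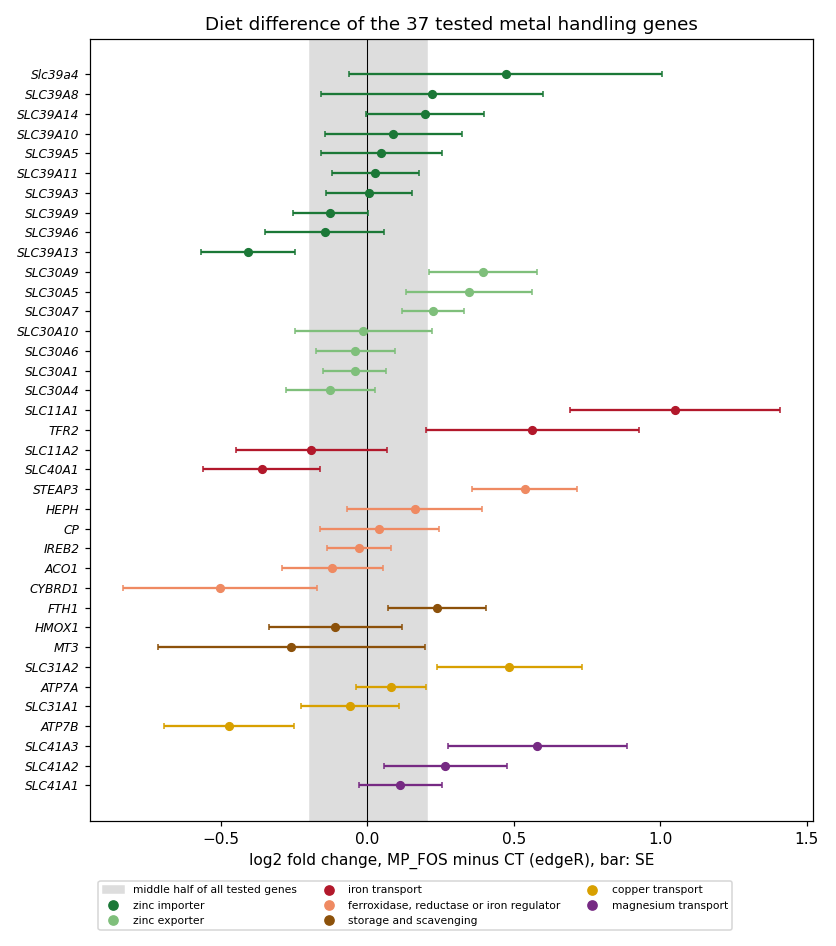
The log2 fold change of each tested member, MP_FOS minus CT, on the horizontal axis, with bars for its SE and colours for its role. The grey band runs between the lower and upper quartiles of all 13774 tested genes (−0.20 to 0.20), and members range from −0.50 (CYBRD1) to 1.05 (SLC11A1).

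Values by library are given next as normalised CPM, for CT replicates 1, 2 and 3 and then MP_FOS replicates 1, 2 and 3. STEAP3 (ENSGALG00000012117), which reduces iron inside endosomes after transferrin uptake, had 16.9, 14.7 and 13.3 CPM in CT and 19.3, 26.1 and 19.6 CPM in MP_FOS. All 3 MP_FOS libraries lay above all 3 CT libraries, and replicate 2 was the highest. The log2 fold change was 0.54 ± 0.18 (SE), with an unadjusted p of 0.0192 and an adjusted p of 0.45 (edgeR, BH).

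SLC11A1 (ENSGALG00000011434), or NRAMP1, pumps iron and manganese out of the phagosome in macrophages and limits the growth of engulfed bacteria. It had 3.48, 3.88 and 2.07 CPM in CT and 5.02, 5.40 and 9.19 CPM in MP_FOS. The groups did not overlap, and MP_FOS replicate 3 was the highest of the 6. Its log2 fold change was 1.05 ± 0.36, the largest in size among the 37 members (unadjusted p = 0.0211, adjusted p = 0.455, edgeR, BH). The values rest on 39 to 109 counts per library. The 10 macrophage markers, none at 0, summed to 275 to 398 FPKM in CT and 364 to 439 FPKM in MP_FOS, with 5 of the 10 higher and 5 lower on average. Their part in this difference was not tested.

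SLC39A13 (ENSGALG00000008122), or ZIP13, releases zinc from vesicles of the secretory pathway and is needed for connective tissue in humans and mice. It had 55.3, 56.4 and 55.1 CPM in CT, an SD of 1.29% of the mean, and 39.6, 34.6 and 51.6 CPM in MP_FOS. The groups did not overlap, although MP_FOS replicate 3 came close to CT. On the log2 scale the difference was −0.41 ± 0.16 (unadjusted p = 0.0386, adjusted p = 0.467, edgeR, BH). The 6 fibroblast markers, none at 0, summed to 1079 to 1085 FPKM in CT and 734 to 954 FPKM in MP_FOS, and 5 of the 6 had the lower mean in MP_FOS. MP_FOS replicate 3, the highest of its diet for SLC39A13, was the lowest of its diet for this sum, but the markers were split. In that library COL1A1, COL1A2 and COL3A1 were the lowest of their diet, and PDGFRA, DCN and LUM the highest. Fibroblast markers were not the only list with lower sums. The 5 goblet (mucus) cell rows summed to 4337 to 4597 FPKM in CT and 2622 to 3961 FPKM in MP_FOS, 2 higher and 3 lower on average. The 7 enteric neuron and glia rows summed to 16.4 to 18.9 and 7.96 to 14.05 FPKM, all 7 lower on average. In FPKM, 12.0% of all genes were lower in MP_FOS without overlap and 4.38% higher. The part of fibroblast content, or of any other cell type, in the SLC39A13 difference was not tested.

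SLC39A9 (ENSGALG00000009438) had 137, 131 and 112 CPM in CT and 117, 120.1 and 110.3 CPM in MP_FOS, overlapping between diets. In FPKM the same gene did not overlap, at 29.7, 30.1 and 27.8 in CT and 26.3, 24.9 and 22.8 in MP_FOS, while its implied transcript length moved between 4.17 and 4.85 kb from library to library. SLC39A14 (ENSGALG00000033989) had 105, 119 and 111 CPM in CT and 155, 138 and 91.1 CPM in MP_FOS. Its MP_FOS libraries lay on both sides of CT, with a log2 fold change of 0.20 ± 0.20. Without MP_FOS replicate 1 that value was 0.03. Slc39a4 showed the widest spread relative to its mean of any tested member in MP_FOS, 6.03, 2.32 and 1.52 CPM against 1.74, 3.13 and 2.28 CPM in CT. The high value rests on 101 counts in replicate 1, and without that library its log2 fold change went from 0.47 to −0.31. The other 6 tested importers had log2 fold changes between −0.15 (SLC39A6) and 0.22 (SLC39A8).

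Of the 7 tested zinc exporters, SLC30A5, SLC30A7 and SLC30A9 had log2 fold changes above 0, and the other 4 lay between −0.13 and −0.01. SLC30A9 (ENSGALG00000031415), which moves zinc out of mitochondria, had 31.5, 33.4 and 31.2 CPM in CT and 31.05, 49.5 and 46.1 CPM in MP_FOS. Replicates 2 and 3 lay above CT and replicate 1 just under it. This gave a log2 fold change of 0.40 ± 0.18, with an adjusted p of 0.498 (edgeR, BH). It was 0.57 without MP_FOS replicate 1, the library nearest to CT, and leaving that out favours a difference. Without MP_FOS replicate 2 it was 0.26.

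SLC30A7 (ENSGALG00000020879), which feeds zinc to enzymes such as alkaline phosphatase in the Golgi, was the most even member in CT, with 42.8, 42.3 and 42.1 CPM. It had 47.0, 51.1 and 50.3 CPM in MP_FOS, without overlap. Its log2 fold change was small, 0.22 ± 0.11 (adjusted p = 0.5, edgeR, BH), and stayed between 0.20 and 0.25 whichever single library was left out. SLC30A5 (ENSGALG00000014787), which works in the Golgi together with SLC30A6, had 61.4, 83.1 and 58.1 CPM in CT and 65.1, 105 and 87.9 CPM in MP_FOS. In both diets the highest library was replicate 2, the one with almost no W-linked reads. MP_FOS replicate 3, which had W-linked reads, lay above CT replicate 2 (87.9 against 83.1 CPM). SLC30A5 was singled out after its values were seen, as a gene that lies on the Z chromosome in chicken. The part of Z linkage in this order was not tested. SLC30A6, the partner of SLC30A5, had a log2 fold change of −0.04 ± 0.13.

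SLC30A4 (ENSGALG00000005703), the most abundant exporter, which in mouse loads zinc into milk, had 234, 285 and 218 CPM in CT and 244, 203 and 226 CPM in MP_FOS. The libraries overlapped, with a log2 fold change of −0.13 ± 0.15. SLC30A10 (ENSGALG00000026727) had 35.2, 52.1 and 38.5 CPM in CT and 54.6, 36.7 and 33.0 CPM in MP_FOS. The spread within each diet exceeded the difference between them, −0.01 ± 0.23 on the log2 scale. SLC30A1 (ENSGALG00000009858), whose transcription rises with cytosolic zinc in mammals, had 42.9 to 44.6 CPM in CT and 40.1 to 44.7 CPM in MP_FOS. Its libraries were close together in both diets, and its log2 fold change was −0.04 ± 0.11.

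**Figure D3:**
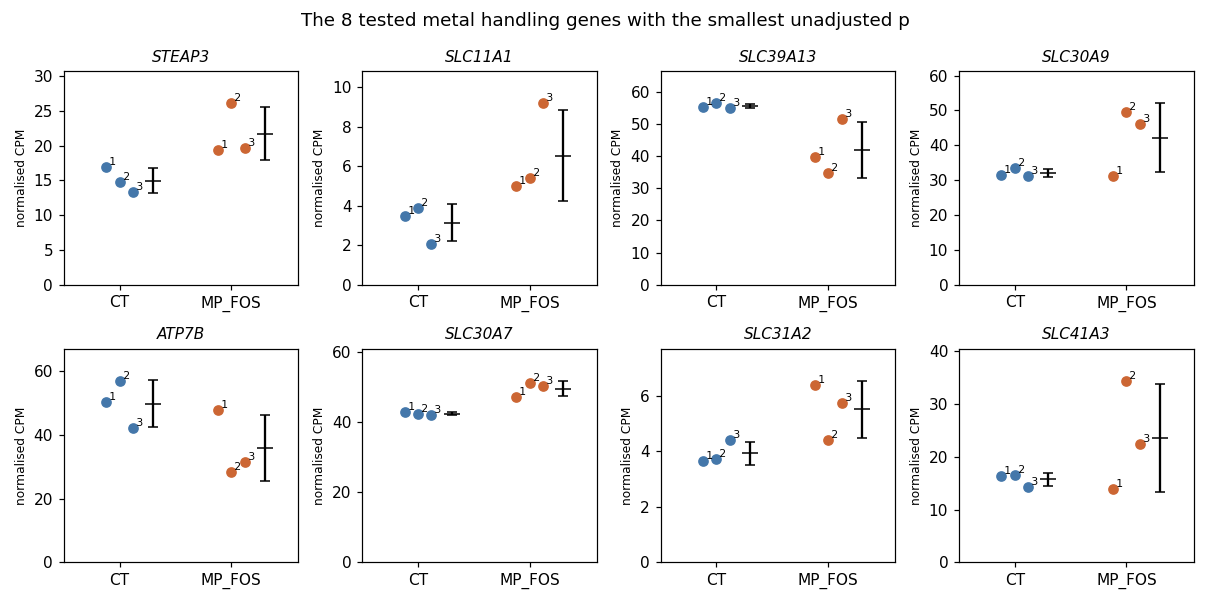
Normalised CPM (vertical, from 0) of the 8 tested members with the smallest unadjusted p, with 1 point per library labelled by replicate number and a bar for the mean ± SD of each diet. STEAP3, SLC11A1, SLC39A13 and SLC30A7 show no overlap between diets, while MP_FOS replicate 1 lies at or near the CT level in SLC30A9, ATP7B and SLC41A3.

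Of the genes of iron uptake and export at the intestinal cell, CYBRD1, SLC40A1 and HEPH spread more in MP_FOS than in CT. SLC11A2 spread alike in both, with an SD of 26.75% of the mean in CT and 27.07% in MP_FOS. The SD on the log2 scale was larger in MP_FOS for 69.3% of all genes. CYBRD1 (ENSGALG00000030703) had 134, 184 and 126 CPM in CT and 159, 90.2 and 63.7 CPM in MP_FOS. Replicate 1 sat inside the CT range and replicates 2 and 3 below it. With all libraries the log2 fold change was −0.50 ± 0.33 (adjusted p = 0.609, edgeR, BH). It was −0.95 without MP_FOS replicate 1 (adjusted p = 0.115, edgeR, BH), the library nearest to CT, so leaving it out favours a difference. Without MP_FOS replicate 3 it was −0.25, and with CT replicate 2 and MP_FOS replicate 2 left out it was −0.22.

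SLC40A1 (ENSGALG00000043618), ferroportin, had 115, 126 and 117 CPM in CT and 119, 68.7 and 91.8 CPM in MP_FOS. The order was like that of CYBRD1 in that replicate 1 lay in the CT range. Its log2 fold change was −0.36 ± 0.20 (adjusted p = 0.545, edgeR, BH) and −0.58 without that library, again the nearest to CT. Without MP_FOS replicate 2 it was −0.18, and −0.14 with CT replicate 2 left out as well. HEPH (ENSGALG00000037410), the partner of ferroportin in iron export, had 198, 225 and 167 CPM in CT and 199, 293 and 167 CPM in MP_FOS. It was highest in MP_FOS replicate 2, where ferroportin was lowest, and its log2 fold change was 0.16 ± 0.23. SLC11A2 (ENSGALG00000041533), DMT1, had 36.5, 53.6 and 63.5 CPM in CT and 39.9, 58.6 and 35.9 CPM in MP_FOS. Each diet covered nearly the same range, with a log2 fold change of −0.19 ± 0.26.

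Enterocyte markers did not move as one list beside these genes. FABP6, the ileal bile acid binding protein, had 4617, 3994 and 3632 FPKM in CT and 5175, 1455 and 1003 FPKM in MP_FOS, and FABP2, a fatty acid binding protein, 783, 809 and 506 FPKM in CT and 1012, 252 and 272 FPKM in MP_FOS. Both had replicate 1 above CT and replicates 2 and 3 below, as CYBRD1 had its replicates 2 and 3 below CT. EPCAM, a marker of all gut epithelium, had 988, 1182 and 877 FPKM in CT and 1125, 1507 and 1287 FPKM in MP_FOS. In SLC10A2 and SLC5A1, of the same list, MP_FOS replicates 2 and 3 also lay above every CT library. Of the 16 enterocyte rows, 9 had the higher and 7 the lower mean in MP_FOS. The part of the makeup of the epithelium in the iron and copper genes was not tested.

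The transferrin receptor, listed as TFR2 (ENSGALG00000007485), had 41.1, 36.3 and 55.1 CPM in CT and 44.96, 107 and 44.0 CPM in MP_FOS. Replicate 2 alone stood outside the CT range, and the log2 fold change of 0.56 ± 0.36 was 0.01 without that library and −0.11 with CT replicate 2 left out as well. It was singled out after its values were seen. In the same library STEAP3 and HEPH were also the highest of the 6, and SLC40A1, HMOX1 and ATP7B the lowest of the 6. MP_FOS replicate 2 was the highest or the lowest library for 16 of the 37 members (43.2%), beside 47.2% of all genes, so such extremes were no more frequent here than elsewhere in that library. For the messages of the iron regulatory proteins, the log2 fold change was −0.03 ± 0.11 for IREB2 and −0.12 ± 0.17 for ACO1. The SD was 3.33% of the mean in CT and 2.65% in MP_FOS for IREB2, and 13.9% and 16.4% for ACO1. CP had a log2 fold change of 0.04 ± 0.20.

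For storage and scavenging, FTH1 had 1848, 1774 and 1856 CPM in CT and 2175, 1848 and 2431 CPM in MP_FOS. MP_FOS replicate 2 lay within the CT range and the other 2 above it. The log2 fold change was 0.24 ± 0.17 (adjusted p = 0.638, edgeR, BH). HMOX1 (ENSGALG00000012550), heme oxygenase 1, which frees iron from heme, had 53.8, 61.3 and 58.3 CPM in CT and 71.6, 37.5 and 51.7 CPM in MP_FOS. Its CT libraries were close together and its MP_FOS libraries lay on both sides of them, with a log2 fold change of −0.11 ± 0.23. MT3 (ENSGALG00000014616), a metallothionein, had 5.71, 6.09 and 1.86 CPM in CT and 2.93, 4.34 and 4.13 CPM in MP_FOS. Its CT spread, 51.4% of the mean, was the widest of the 37 members.

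The row for the gene that RefSeq names MT4 carries the symbol MT4L (ENSGALG00000028451) and so is no member. Metallothioneins bind excess zinc and copper. In CPM, which is not corrected for length, MT4L lay far above MT3. It had 100.5, 69.0 and 46.1 CPM in CT and 93.5, 64.4 and 138 CPM in MP_FOS. Its log2 fold change was 0.46 ± 0.35 (adjusted p = 0.654, edgeR, BH). MP_FOS replicate 3, the highest of the 6, was also the highest for FTH1 and SLC11A1. That library was the highest of the 6 for 7 of the 37 members (18.9%), beside 19.2% of all genes. MT4L was named after its values were seen.

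Among the copper genes, ATP7B (ENSGALG00000017021), a copper pump best known from liver, had 50.3, 56.9 and 42.3 CPM in CT and 47.8, 28.3 and 31.6 CPM in MP_FOS. Replicate 1 lay inside the CT range and the other 2 below it, as in CYBRD1. On the log2 scale its difference was −0.47 ± 0.22 (unadjusted p = 0.0684, adjusted p = 0.498, edgeR, BH). It was −0.74 without MP_FOS replicate 1 (adjusted p = 0.095, edgeR, BH), the library nearest to CT, so leaving it out favours a difference. That fit called 1.59% of all genes at an adjusted p under 0.05. With CT replicate 2 and MP_FOS replicate 2 both left out, the log2 fold change of ATP7B was −0.21. Its relative ATP7A (ENSGALG00000007902), the pump of intestinal copper export, had 40.9 to 43.3 CPM in CT and 40.7 to 48.9 CPM in MP_FOS, which gives 0.08 ± 0.12 on the log2 scale. The log2 fold changes of the 2 pumps, neither past the threshold, were not tested against each other.

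SLC31A1 (ENSGALG00000008844), the copper importer CTR1, had 244, 262 and 226 CPM in CT and 285, 214 and 203 CPM in MP_FOS. Its MP_FOS libraries lay on both sides of CT, with a log2 fold change of −0.06 ± 0.17. SLC31A2 (ENSGALG00000030176), a related protein of inner membranes, was scarce and had 3.66, 3.71 and 4.41 CPM in CT and 6.39, 4.39 and 5.73 CPM in MP_FOS. MP_FOS replicate 2 overlapped the CT range narrowly. This is a log2 fold change of 0.48 ± 0.25 (adjusted p = 0.527, edgeR, BH), on 61 to 107 counts per library.

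The 3 magnesium carriers all had a log2 fold change above 0, as did 51.5% of all genes tested, and none passed the threshold. SLC41A3 (ENSGALG00000034289), which moves magnesium out of mitochondria, had 16.4, 16.5 and 14.3 CPM in CT and 13.9, 34.3 and 22.4 CPM in MP_FOS. Replicate 1 was the lowest of all 6 and replicate 2 the highest. The log2 fold change was 0.58 ± 0.31 (adjusted p = 0.535, edgeR, BH), and it was 0.20 without MP_FOS replicate 2. SLC41A2 (ENSGALG00000012697) had 70.6, 89.3 and 62.4 CPM in CT and 76.1, 77.3 and 114 CPM in MP_FOS. Only replicate 3 was outside the CT range, and without it the log2 fold change went from 0.27 to 0.05. SLC41A1 (ENSGALG00000000721), which exchanges magnesium for sodium at the cell surface, had 34.8, 34.0 and 39.7 CPM in CT and 33.5, 40.5 and 43.3 CPM in MP_FOS. These values overlapped, with a log2 fold change of 0.11 ± 0.14.

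**Figure D4:**
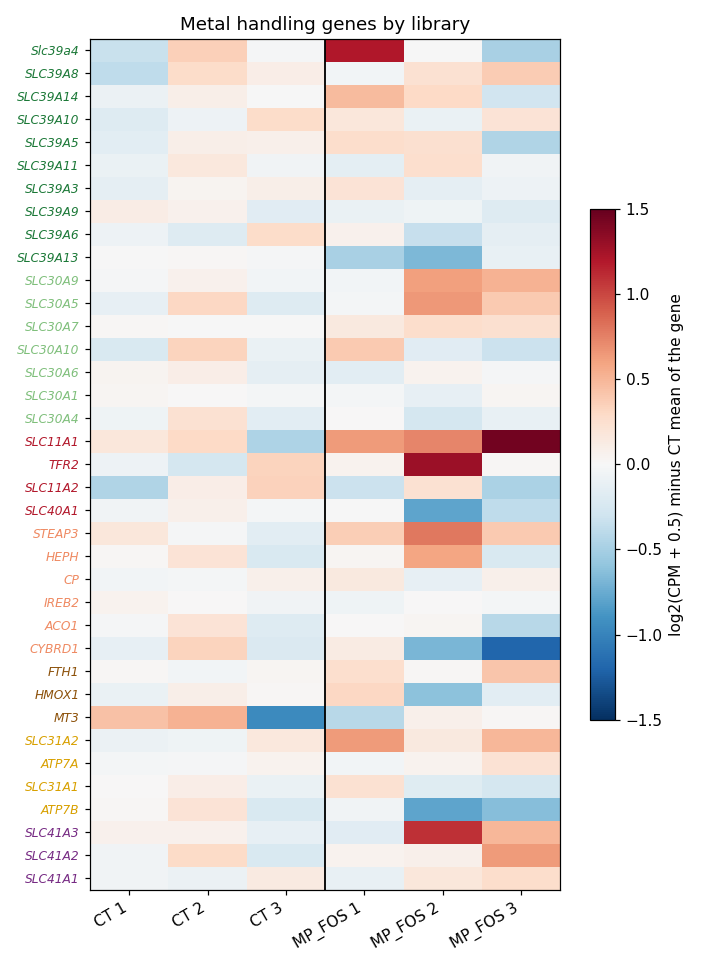
Each tested member (rows, names coloured by role as in the plot of fold changes) in each library (columns), as the difference in log2(CPM + 0.5) from that gene's CT mean, red above and blue below. MP_FOS replicates 2 and 3 are red for SLC30A9 and SLC30A5 and blue for CYBRD1, ATP7B and SLC40A1, where MP_FOS replicate 1 is pale.

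The SD within a diet was a median of 10.3% of the mean in CT and 19.3% in MP_FOS over the 37 members, and 12.3% and 19.3% over all genes. The SD on the log2 scale was larger in MP_FOS than in CT for 28 members (75.7%), beside 69.3% of all genes. MP_FOS replicate 1 was the library nearest to the CT mean in 17 members (45.9%), among them CYBRD1, ATP7B, SLC40A1, SLC30A9 and SLC41A3, beside 45.5% of all genes. Replicate 2 was the highest of its diet in both diets for 8 members (21.6%), beside 11.5% of all genes. It was the lowest in both diets for 2 members, FTH1 and SLC39A6 (5.41%), beside 11.3% of all genes, and either the highest or the lowest in both for 10 (27.0%), beside 22.8%. The 8 were SLC30A5 and ACO1, both Z-linked in chicken, with SLC30A6, SLC30A9, SLC39A11, SLC41A3, HEPH and MT3. The part of Z linkage here was not tested. ACO1 (ENSGALG00000002162) had 144, 169 and 128 CPM in CT and 147, 149 and 110 CPM in MP_FOS, so in MP_FOS replicates 1 and 2 were nearly equal.

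In FPKM the diets did not overlap in 7 of the 37 tested members, 3 higher and 4 lower in MP_FOS, against 4 in CPM. Over all genes, FPKM gave 4.38% higher and 12.0% lower, where CPM gave 8.2% higher and 8.49% lower, so the FPKM scale leans to lower values in MP_FOS as a whole. SLC39A9, IREB2 and SLC40A1 were separated in FPKM only. IREB2 had 36.0, 33.6 and 33.8 FPKM in CT and 31.2, 32.2 and 33.0 FPKM in MP_FOS, with the same implied length of 3.26 kb in every library. SLC40A1 had 31.4, 34.2 and 34.6 FPKM in CT and 29.7, 18.4 and 25.4 FPKM in MP_FOS, with implied lengths of 3.52 to 3.88 kb.

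Other genes of metal biology outside the symbol rule were read from a list of 109 symbols of iron, heme, iron-sulfur cluster, zinc and copper handling. Of these, 93 symbols matched 94 rows, and 90 rows were tested. None passed an adjusted p of 0.05 in edgeR, where 0% of all genes passed, and DESeq2 also called 0. At an unadjusted p under 0.05 there were 9 higher and 3 lower, 13.3% of the list beside 10.6% of all genes. The groups did not overlap in 18 rows, 13 higher and 5 lower, or 20.0% beside 16.7%. The median log2 fold change was 0.04.

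The 4 with the smallest unadjusted p were LOXL2, TF, EXFABP and SLC25A37. LOXL2, a copper-dependent enzyme that crosslinks collagen, had 77.7, 61.8 and 80.5 CPM in CT and 54.3, 52.4 and 46.9 CPM in MP_FOS, or −0.52 ± 0.14 as a log2 fold change (unadjusted p = 0.00796, adjusted p = 0.445, edgeR, BH). TF, the iron carrier ovotransferrin, had a log2 fold change of −0.58 ± 0.17, and its libraries did not overlap either. EXFABP, a lipocalin that binds bacterial iron chelators, had 20.4, 9.62 and 17.4 CPM in CT and 24.1, 75.1 and 33.9 CPM in MP_FOS. Its log2 fold change of 1.49 ± 0.46 was 0.62 with CT replicate 2 and MP_FOS replicate 2 left out. SLC25A37, the mitochondrial iron importer mitoferrin, had a log2 fold change of 0.68 ± 0.25, with MP_FOS replicate 1 (11.3 CPM) inside the CT range of 8.81 to 11.7 CPM.

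MELTF, melanotransferrin, an iron-binding protein of the cell surface, was named after its values were seen. It had 155, 241 and 152 CPM in CT and 245, 31.5 and 23.4 CPM in MP_FOS. Replicate 1 lay just above the highest CT library and the other 2 lay far below every CT library, the arrangement also seen in FABP6. The log2 fold change was −0.87 ± 0.83 (adjusted p = 0.724, edgeR, BH). Without MP_FOS replicate 1, the library nearest to CT, it was −2.74 with an adjusted p of 0.0214 (edgeR, BH). That fit called 1.59% of all genes, and leaving out the library nearest to CT favours a difference. The smallest log2 fold change in size with 1 library left out was −0.40. With CT replicate 2 and MP_FOS replicate 2 left out it was −0.18. With all libraries DESeq2 gave MELTF no adjusted p.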

How the data were processed

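Total RNA of 6 ileum libraries was sequenced. The authors deposited 1 gene table that holds, per the file headers, estimated counts (expected counts, 7.98% of values not whole) and FPKM for every library. Tools listed in the submitters' processing notes, with no role given, are HISAT2, Bowtie2, StringTie 1.3.1, fastp 0.18.0 and DESeq2. Genome build, counting step and strand setting: not given in the sources used here. Per the labels, libraries were made with a kit for small RNA, yet long genes were counted.

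Rounded counts entered edgeR 4.0.16 under R 4.3.3 (filterByExpr, TMM, quasi-likelihood F test, two-sided, Benjamini-Hochberg over 13774 genes, threshold 0.05). Each SE is the log2 fold change, without sign, over the root of F. DESeq2 1.42.0 and limma 3.58.1 (voom, or trend on log2(FPKM + 1) or log2(FPKM + 0.1)) were alternatives, with other scalings, filters, a robust fit, the replicate number as a block, a threshold of 0.1 and libraries left out. The code was tested on simulated counts. Log2 CPM correlated at 0.939 to 0.976 across genes within a diet. Implied transcript length is the count over the FPKM and the library total, where a library has at least 10 counts. Symbols are those of the file, and RefSeq names (GRCg7b) came through NCBI identifiers for 35 of the 42 members.

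The members and the lists were chosen with earlier results of these data known. Library values are given for the 8 members of smallest unadjusted p and the 2 of highest CT FPKM in each role group. Those of Slc39a4, SLC30A5, TFR2, MT3, ACO1, IREB2, SLC39A11 and STEAP4, outside that rule, were added after their values were seen. The upper limits for SLC30A2, which had 0 counts, cover counting error only, while each SD and SE carries the spread between libraries.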

Additional observations from a re-analysis of the deposited data

How the results depend on the processing

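No metal handling gene passed an adjusted p of 0.05 under any alternative run, including DESeq2, limma-voom, FPKM and each library left out. A threshold of 0.1 was applied only to the main edgeR fit, where no member passed it. Without MP_FOS replicate 1, SLC30A9 (adjusted p = 0.0827) and ATP7B (adjusted p = 0.095) were under 0.1 (edgeR, BH). In both genes that library was the MP_FOS library nearest to the CT mean, so leaving it out favours a difference. Over all genes the count was 0 in the main edgeR test and 104 in DESeq2. It was 1 with CT replicate 2 and MP_FOS replicate 2 both left out, and from 0 to 223 with 1 library left out, the highest without MP_FOS replicate 1. The other metal genes gave from 0 to 1 with 1 library left out, the 1 being MELTF. The median log2 fold change of the members, 0.04, was −0.051 on log2(FPKM + 1) and −0.055 on log2(FPKM + 0.1). With 1 library left out it lay between −0.017 (MP_FOS replicate 1) and 0.068 (CT replicate 2), and the median over all genes was itself −0.06 and −0.07 in the FPKM fits. The sign of the log2 fold change held in every alternative for 19 of the 37 tested members, STEAP3, SLC11A1, SLC39A13, SLC30A9, ATP7B, SLC30A7, SLC31A2, SLC41A3, SLC40A1 and CYBRD1 among them. For the other 18 it changed at least once. With both replicates numbered 2 left out the sign changed for TFR2 −0.11, SLC30A4 0.066, HMOX1 0.14, SLC30A1 0.0032, SLC31A1 0.061, SLC39A5 −0.0068, SLC39A11 −0.018 and SLC30A10 0.26. With the stricter filter the sign changed for SLC39A3 −0.00085. On log2(FPKM + 0.1) the sign changed for SLC39A5 −0.055, CP −0.023, SLC39A11 −0.071 and SLC39A3 −0.11. On log2(FPKM + 1) the sign changed for SLC39A5 −0.051, CP −0.014, SLC39A11 −0.068 and SLC39A3 −0.10. With the replicate number as a block the sign changed for SLC39A3 −0.00053. With upper-quartile factors the sign changed for SLC39A11 −0.015 and SLC39A3 −0.035. With 1 library left out the range crossed 0 for Slc39a4 from −0.31 to 0.81, SLC39A6 from −0.27 to 0.0094, HEPH from −0.10 to 0.33, ACO1 from −0.21 to 0.012 and SLC39A8 from −0.0034 to 0.42, for MT3 from −0.64 to 0.0077, HMOX1 from −0.38 to 0.094, SLC39A10 from −0.014 to 0.25, SLC31A1 from −0.23 to 0.034 and SLC30A6 from −0.11 to 0.010, and for SLC39A5 from −0.077 to 0.25, CP from −0.030 to 0.12, SLC39A11 from −0.10 to 0.11, SLC30A10 from −0.27 to 0.17 and SLC39A3 from −0.11 to 0.069. The cause was not tested. With the replicate number as a block the count of genes past the threshold was 0 and the members' median was 0.02. Same-numbered libraries deviated together with r of 0.02, 0.28 and 0.16 across genes for numbers 1, 2 and 3. Libraries of unlike number had r from −0.23 to 0.12, most of them below 0. CT replicate 1 correlated better with MP_FOS replicate 3 (0.12) than with MP_FOS replicate 1. The labels do not say what a number marks, so the numbers were not taken as pairs. What a shared number reflects was not tested. Depth limits Slc39a4, SLC39A8, SLC11A1, SLC31A2 and MT3, which have at most 109 counts in a library.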

Other observations

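STEAP4, a metal reductase with too few counts to be tested, had 5, 8 and 5 counts in CT replicates 1, 2 and 3 and 5, 24 and 2 counts in MP_FOS replicates 1, 2 and 3, so that MP_FOS replicate 2 stood apart. Of the 42 members, 9 carry the KEGG pathway name Ferroptosis in the deposited annotation, namely FTH1, HMOX1, SLC40A1, SLC11A2, TFR2, STEAP3, CP, SLC39A14 and SLC39A8.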
